A study of Homo sapiens with 2 samples.

Results

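The genes described here are the cytosolic and mitochondrial heat shock chaperones of Calu-3 cells, with their cochaperones and the heat shock factors. A list of 39 genes was matched to the platform annotation, and 33 of them had at least 1 probe set annotated to that gene alone, 72 probe sets in all, out of 19775 genes so named in the table. All 33 were measured, meaning that the brightest probe set exceeded the floor (the median signal of an array) in at least 1 array, and 66 of the 72 probe sets did so. HSPA1A, HSPA1B, HSPA8 and TCP1 had only probe sets that name other genes as well, and these 4 genes are given apart. AHSA1 and HSF2 had no probe set named here and were not analysed.

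Calu-3, an epithelial line from a human lung adenocarcinoma, was grown on flexible plates coated with collagen type I. The stretched culture underwent sinusoidal stretch for 18 h, with a minimum of 0.7% and a maximum of 20%, alternating 2 s of stretch with 2 s of rest, and the non-stretched culture carried the same 18 h label without stretch. Both came from this 1 line, in medium with 10% serum, from plates at about 80% confluence in the protocol, although the design text calls the cells confluent. Total RNA from each culture was hybridised to 1 Affymetrix array, so there is n = 1 per condition, with no replicate, no SD and no test. Every difference below is between these 2 arrays, and the number of arrays limits its precision.

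Heat shock chaperones bind unfolded protein chains, and some of them, such as HSP70 and HSP90, use cycles driven by ATP to help the chains fold. HSP70 proteins are fed by J-domain proteins (DNAJ) and reset by nucleotide exchange factors of the HSP110 and BAG families. HSP90 completes client proteins such as kinases and steroid receptors with the help of cochaperones, and the ring-shaped chaperonin TRiC folds actin and tubulin. HSF1, the main heat shock factor, binds inverted repeats of the letters GAA in promoters when unfolded protein accumulates and induces HSPA1A, HSPA1B, DNAJB1, HSPB1, BAG3 and HSPH1 strongly in heated human cells.

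The promoters are shown first. Their sequence was not used to choose the genes, but the list was chosen as heat shock genes and includes genes that HSF1 induces. A high share of its binding element among them is therefore a description and no independent result. Of the 39 genes, 36 had entries in the RefSeq promoter table (build GRCh38.p14), each window running from 250 bases before to 50 bases after an annotated start. HSPA14, CCT6A and HSF1 were not among them. Paired units were searched as GAANNTTC and TTCNNGAA, and 3 alternating units as TTCNNGAA followed by NNTTC or GAANNTTC followed by NNGAA; both strands were read, and a 3-unit match contains paired matches. All 3 units stood in a window of 7 of the 36 genes (19.4%), against 0.608% of the 27305 genes in the whole table. These were HSPA8, HSP90AA1, HSP90AB1, CHORDC1, DNAJA1, DNAJB6 and HSPD1. A pair or more stood in 21 of the 36 genes (58.3%), against 16.2% of all genes. The following stretches hold the 250 bases before a start, 5′ to 3′ on the gene's strand, with all matches in capitals. The first 4 are genes with 3 units, and the last 2 are classical heat-inducible genes with a pair only. Where a gene has several starts, the window with most matches is shown.
CHORDC1, chr11:90223050-90223299, - strand: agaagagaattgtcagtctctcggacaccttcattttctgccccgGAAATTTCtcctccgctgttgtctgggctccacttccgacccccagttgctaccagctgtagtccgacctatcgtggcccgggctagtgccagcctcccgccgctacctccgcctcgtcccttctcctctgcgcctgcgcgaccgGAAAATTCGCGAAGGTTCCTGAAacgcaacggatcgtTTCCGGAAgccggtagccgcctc
DNAJB6, chr7:157336754-157337003, + strand: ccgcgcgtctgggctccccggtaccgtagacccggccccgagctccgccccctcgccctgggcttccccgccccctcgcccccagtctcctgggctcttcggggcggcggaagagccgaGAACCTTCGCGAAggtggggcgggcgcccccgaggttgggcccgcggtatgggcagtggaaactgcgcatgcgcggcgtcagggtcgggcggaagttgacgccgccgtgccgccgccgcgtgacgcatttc
HSP90AA1, chr14:102087045-102087294, - strand: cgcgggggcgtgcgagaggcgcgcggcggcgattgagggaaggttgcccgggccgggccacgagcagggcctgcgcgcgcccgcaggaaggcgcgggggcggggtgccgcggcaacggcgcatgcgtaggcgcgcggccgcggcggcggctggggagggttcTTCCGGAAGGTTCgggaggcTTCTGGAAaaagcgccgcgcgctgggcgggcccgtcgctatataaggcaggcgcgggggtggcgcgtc
HSPD1, chr2:197499841-197500090, - strand: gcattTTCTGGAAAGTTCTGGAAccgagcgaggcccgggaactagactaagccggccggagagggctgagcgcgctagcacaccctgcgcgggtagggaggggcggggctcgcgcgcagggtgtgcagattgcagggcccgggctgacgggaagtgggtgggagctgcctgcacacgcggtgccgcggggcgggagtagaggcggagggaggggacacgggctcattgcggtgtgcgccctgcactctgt
HSPA1A, chr6:31815293-31815542, + strand: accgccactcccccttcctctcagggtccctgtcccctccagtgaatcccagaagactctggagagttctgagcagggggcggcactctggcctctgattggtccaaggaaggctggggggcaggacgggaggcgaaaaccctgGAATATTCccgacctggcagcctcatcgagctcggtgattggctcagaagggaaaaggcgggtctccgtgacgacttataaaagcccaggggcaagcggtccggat
HSPB1, chr7:76302423-76302672, + strand: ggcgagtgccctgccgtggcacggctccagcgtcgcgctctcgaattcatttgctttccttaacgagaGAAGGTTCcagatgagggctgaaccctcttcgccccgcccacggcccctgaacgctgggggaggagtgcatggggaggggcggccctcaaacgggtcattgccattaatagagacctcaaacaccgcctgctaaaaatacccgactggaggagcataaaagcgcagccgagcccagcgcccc
HSPA1A and HSPA1L are divergent neighbours whose windows overlap, and the pair at chr6:31815437-31815444 is the same site in both windows. A match describes these letters and does not show that HSF1 binds there. A window without a match lacked only these exact letters, and imperfect or more distant elements were not searched for.

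As a group the chaperones were slightly higher in the stretched array, and few differed strongly. By the brightest probe set, 24 of the 33 measured genes were above 0 in the log2 difference (stretched minus non-stretched) and 9 were below, while 50.5% of all 13453 measured genes were above 0. At least 2-fold higher was 1 gene, HSPA14, against 7.78% of all measured genes, and at least 2-fold lower was 1 gene, HSPA1L, against 7.49%. At 1.5-fold the members counted 9 higher, against 17.9% of all measured genes, and 4 lower, against 16.7%. The median log2 difference of the 33 was 0.27 (1.20-fold), beside 0.01 for all measured genes. The members are bright: their brightest probe sets had a median brightness at the 89.5th percentile of all measured genes, and 27 of 33 had a mean signal of at least 1000. Of these 27 bright members 22 were above 0, against 54.3% of the 3768 measured genes as bright, and their median was 0.33, beside 0.04 for those genes. At 2-fold 1 of the 27 was higher and 0 were lower, against 154 and 110 of the 3768. At 1.5-fold 7 were higher and 2 lower, against 510 and 373. Large differences were thus also less common among bright genes in general.

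The common scale of the arrays bears on these small values. Setting both arrays to the same 75th percentile moved the median of all measured genes by -0.11, to -0.10, and the median of the members to 0.16. The members stayed 0.26 above all genes by arithmetic, because this step subtracts 1 constant from every log2 difference. The split at 1.5-fold was then 7 higher and 5 lower among the members, and 14.4% higher and 20.8% lower among all measured genes. At 2-fold it was 1 higher and 3 lower among the members, with HSPA13 and DNAJB4 joining HSPA1L. Among all measured genes it was 6.34% higher and 9.05% lower. The SD of a single probe set's log2 difference was 0.36, from 5818 genes that had several probe sets above both floors; it covers probe noise and isoform differences, not variation between cultures. Of the 33 members 23 differed by less than 2 such SDs, as did 73.2% of all measured genes. In RNA from a whole culture, fewer cells expressing a gene and less of its RNA per cell cannot be told apart.

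**Figure D1:**
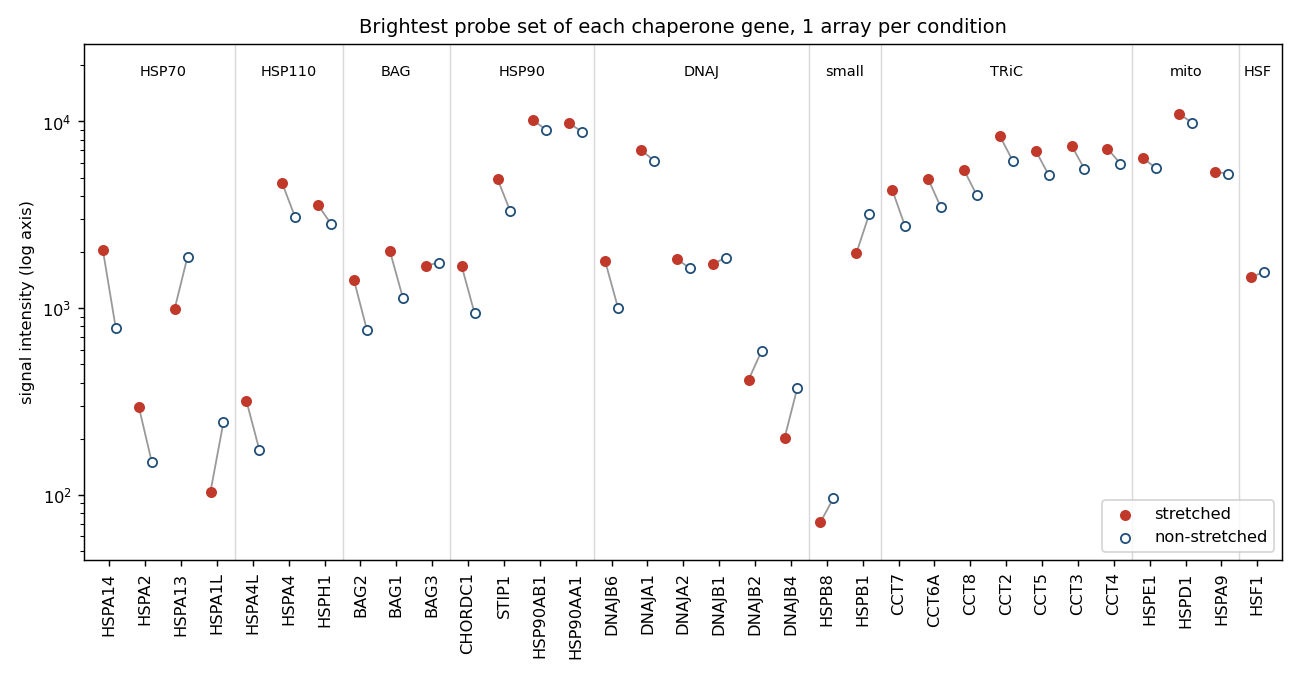
Signal intensity (log axis) of the brightest probe set of each of the 33 measured genes, filled for the stretched and open for the non-stretched array, joined by a line and ordered by subgroup. The TRiC and mitochondrial genes lie between 2749 and 10986 and all slope to a higher stretched value, whereas 9 genes, among them HSPA1L, HSPA13, DNAJB4 and both small heat shock proteins, slope the other way.

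The HSP70 genes did not move together. HSPA14, an HSP70 that works on the ribosome with the J-protein DNAJC2, had a signal of 2047 in the stretched array and 780.45 in the non-stretched array. It was 2.62-fold higher, and its 3 probe sets ranged from 0.88 to 1.57 on the log2 scale, all in the same direction. It was the chaperone with the largest difference of the 33 by the brightest probe set. DNAJC2, its partner, was at a log2 difference of 0.67 in the brightest probe set and 0.15 in the other.

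HSPA2, an HSP70 best known from male germ cells, had 297 in the stretched array and 151 in the non-stretched array, 1.97-fold higher in its 1 probe set, and 0.36 on the log2 scale with the floor at the 75th percentile. HSPA1L, a close relative of HSPA1A expressed mainly in testis, had 104 in the stretched and 245 in the non-stretched array, 2.35-fold lower; its mean signal lay at the 33.3rd brightness percentile of the measured genes. HSPA13, a membrane-associated HSP70 that lacks the usual substrate-binding part, had 992 in the stretched and 1889 in the non-stretched array. That is 1.90-fold lower, but its second probe set, with 715 in the stretched and 693 in the non-stretched array, was at 0.05, so the probe sets of HSPA13 did not show the same difference.

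The shared probe sets of HSPA1A, HSPA1B and HSPA8 differed by less than 1.5-fold. HSPA1A and HSPA1B encode the stress-inducible HSP70 and share 2 probe sets, which had 6344 and 4732 in the stretched array and 6664 and 4968 in the non-stretched array. Their log2 differences were both -0.07, and another probe set that also names HSPA1L was at 0.13. HSPA8, the constitutive HSC70, shares its 4 probe sets with the small nucleolar RNAs SNORD14C and SNORD14D by annotation. These probe sets were among the brightest of the table, from 9613 to 11911 in the stretched array and from 8902 to 10620.4 in the non-stretched array, with log2 differences from 0.11 to 0.34. The HSPA1A promoter, printed above, holds a pair of units, and a window of HSPA8 holds 3.

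The exchange factors that reset HSP70 were higher more evenly. All 9 measured probe sets of the HSP110 genes were above 0 and 8 of them were at least 1.5-fold higher, with log2 differences from 0.33 to 1.27. Over all 24977 measured probe sets of 1 gene, 53.3% were above 0 and 19.8% at least 1.5-fold higher. HSPA4, the constitutive HSP110, had 4661 in the stretched and 3071 in the non-stretched array, 1.52-fold higher, and its dimmest probe set was at 1.27. HSPA4L, a relative with much lower signal, had 319 in the stretched and 175 in the non-stretched array, 1.83-fold higher, with 1.18 in the second probe set; with the floor at the 75th percentile its brightest probe set was at 0.47. HSPH1, the heat-inducible HSP110, had 3556 in the stretched and 2830.3 in the non-stretched array, 1.26-fold higher in the brightest probe set, with 0.86 and 0.64 in the others. The heat-inducible gene had the smallest difference of these 3 in its brightest probe set.

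BAG1 and BAG2 were also higher, while BAG3 was not. BAG1, which links HSP70 to the proteasome, had 2025 in the stretched and 1141 in the non-stretched array (1.78-fold higher), and all 3 of its probe sets lay between 0.83 and 0.95. BAG2, an inhibitor of the HSP70-bound ubiquitin ligase STUB1, had 1412 in the stretched and 765 in the non-stretched array (1.85-fold higher), with 0.57 in its other measured probe set. BAG3, which directs HSP70 clients to autophagy together with HSPB8, had 1689 in the stretched and 1754 in the non-stretched array, a log2 difference of -0.06 in its 1 probe set.

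**Figure D2:**
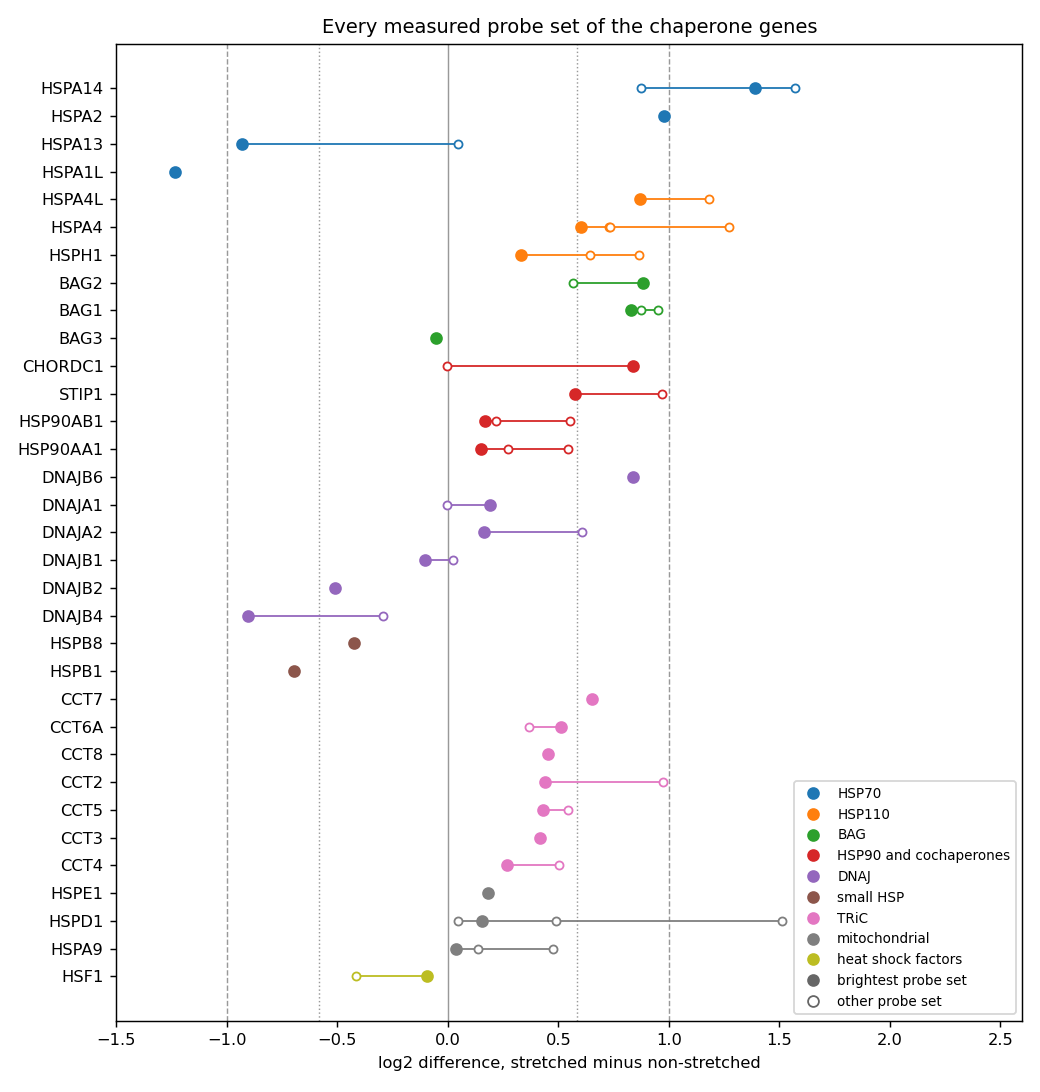
Log2 difference (stretched minus non-stretched) of every measured probe set of the 33 genes, with the brightest probe set filled and the others open, coloured by subgroup; dotted lines mark 1.5-fold and dashed lines 2-fold. All 11 TRiC, all 9 HSP110 and all 8 mitochondrial probe sets lie above 0, while the DNAJ probe sets are split with 5 above and 5 below.

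Both HSP90 genes differed by less than 1.5-fold in every probe set, and CHORDC1 was the 1 gene of the subgroup to reach 1.5-fold by its brightest probe set. HSP90AA1, the stress-responsive cytosolic HSP90, had 9774 in the stretched and 8813 in the non-stretched array, a log2 difference of 0.15, and its 4 probe sets ranged from 0.15 to 0.55. HSP90AB1, the constitutive form, had 10122 in the stretched and 9021 in the non-stretched array, 0.17 on the log2 scale, with 3 probe sets from 0.17 to 0.55. Both are near the top of the signal range, whose highest values were 13794 in the stretched and 17518 in the non-stretched array.

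STIP1, the adaptor that passes clients from HSP70 to HSP90, had 4912 in the stretched and 3299 in the non-stretched array, 1.49-fold higher, with 0.97 in a second probe set. CHORDC1, an HSP90-binding zinc protein whose promoter holds the overlapping 3-unit runs printed first, had 1683 in the stretched and 941 in the non-stretched array, 1.79-fold higher. Its other own probe set had 28.6 in the stretched array, just above the floor of 28.35, and 5.52 in the non-stretched array, below the floor. A probe set that also names NAALAD2 was at 1.08.

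The J-domain genes were split. DNAJB6, which keeps aggregation-prone proteins soluble, had 1790.05 in the stretched and 1002 in the non-stretched array, 1.79-fold higher in the probe set annotated to it alone. Of its probe sets shared with TMEM135 by annotation, one was at 0.61 and the other at 0.17. DNAJA1, a general HSP70 partner, had 7041 in the stretched and 6174 in the non-stretched array, 0.19 on the log2 scale, and -0.005 in its other probe set. DNAJA2, its close relative, had 1835 in the stretched and 1638 in the non-stretched array, 0.16, with 0.61 in its other probe set. DNAJB1, the classical heat-inducible HSP40, had 1732 in the stretched and 1858 in the non-stretched array, -0.10, and 0.02 in its other probe set. DNAJB2, a J-protein that binds ubiquitin chains, had 414 in the stretched and 589 in the non-stretched array, 1.42-fold lower. DNAJB4, a relative of DNAJB1, had 201 in the stretched and 376 in the non-stretched array, 1.87-fold lower, and -0.29 in its other probe set. Of the 6 J-domain genes 3 were thus above 0 and 3 below, and the subgroup median was 0.03.

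Both small heat shock proteins were lower in the stretched array. HSPB1 (HSP27), which holds unfolded proteins and interacts with actin and intermediate filaments, had 1965 in the stretched and 3179.9 in the non-stretched array, 1.62-fold lower in its 1 probe set. Its promoter, printed above, holds 1 pair of units. HSPB8, the partner of BAG3, had 71.3 in the stretched and 95.7 in the non-stretched array, 1.34-fold lower, the dimmest of the 33 genes. Each of these values rests on 1 measured probe set.

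The TRiC genes were higher by similar amounts. The 7 genes with their own probe sets were all above 0, between 0.27 and 0.65 on the log2 scale with a median of 0.44 (1.36-fold), and all 11 of their measured probe sets were above 0. CCT7 had 4319 in the stretched and 2749 in the non-stretched array and was the highest, 1.57-fold. CCT2, another ring subunit, had 8374 in the stretched and 6170.05 in the non-stretched array, 1.36-fold higher, and 0.97 in its other probe set. CCT4 had 7164 in the stretched and 5954 in the non-stretched array and was the lowest of the 7, 1.20-fold higher.

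CCT3, CCT5, CCT6A and CCT8 lay between these, at 0.42, 0.43, 0.51 and 0.45. The 3 probe sets of TCP1, the eighth subunit, which also name the small nucleolar RNA SNORA29, were at 0.40, 0.57 and 0.45. They had 5555, 1901 and 952 in the stretched array and 4207, 1278 and 698 in the non-stretched array, so the shared TCP1 probe sets lay within the range of the other subunits. With the arrays set to the same 75th percentile the TRiC median was 0.33, beside -0.10 for all measured genes. Only 1 of the 7 reached 1.5-fold.

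Mitochondrial chaperones were nearly equal in their brightest probe sets. HSPD1 (HSP60), the mitochondrial chaperonin, had 10986 in the stretched and 9861 in the non-stretched array, 0.16 on the log2 scale. HSPE1 (HSP10), its lid, had 6359 in the stretched and 5609 in the non-stretched array, 0.18. HSPA9, the mitochondrial HSP70 that pulls proteins through the inner membrane, had 5379.5 in the stretched and 5248 in the non-stretched array, 0.04. Dimmer probe sets of HSPD1 ranged up to 1.51, where the signal was 219 in the stretched and 76.7 in the non-stretched array, and those of HSPA9 up to 0.47. Of the 8 measured probe sets of these 3 genes all were above 0, and 1 reached 1.5-fold.

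HSF1 was the 1 heat shock factor of the member list with values. It had 1464 in the stretched and 1563 in the non-stretched array, a log2 difference of -0.10, and -0.42 in a dim probe set. Transcript level does not report the activity of HSF1, which is controlled after translation.

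Dimmer probe sets of a chaperone often had the more positive difference. Among the 22 members with several measured probe sets, the second brightest had the higher log2 difference in 16 (72.7%), beside 58.5% of the 6575 measured genes with several. The second differed more in size, whatever its sign, in 14 of the 22 (63.6%), beside 53.9% of those genes. The median of these 22 was 0.30 in the brightest and 0.50 in the second probe set, while over the 6575 genes it was 0.01 and 0.07. All measured probe sets had one sign in 18 of the 22 members (81.8%), beside 67.6% of the 6575 genes. Whether the bright probe sets of chaperones approach the upper end of the measurable range was not tested.

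**Figure D3:**
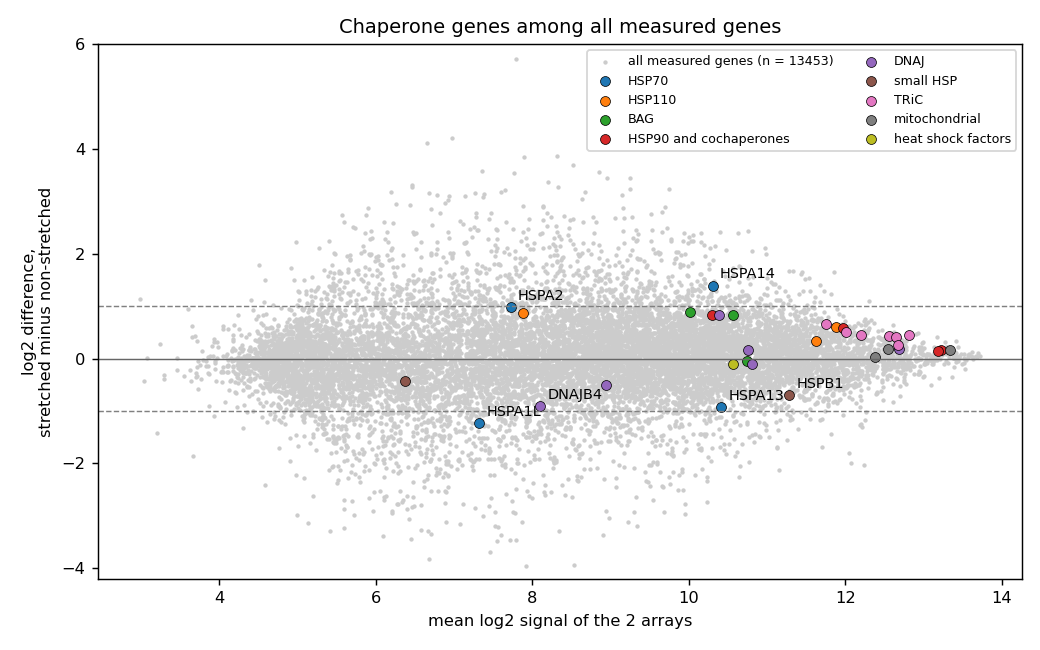
Log2 difference (stretched minus non-stretched) against the mean log2 signal of the 2 arrays for all 13453 measured genes in grey and the 33 chaperone genes in colour; dashed lines mark 2-fold. The chaperones crowd at high signal just above 0, HSPA14 lies above the upper dashed line and HSPA1L below the lower one.

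Read by promoter, the median difference of members with 3 units lay between those of members with a pair only and with neither. The 6 with 3 units and their own measured probe set were all above 0, with a median of 0.18. They ranged from 0.15 (HSP90AA1) to 0.84 (CHORDC1). The 11 members with a pair only had a median of 0.04, from -1.23 (HSPA1L) to 0.88 (BAG2), with 6 above 0. The 13 with neither had a median of 0.42, from -0.93 (HSPA13) to 0.98 (HSPA2), with 10 above 0. At least 1.5-fold higher were 2 of the 6, 2 of the 11 and 4 of the 13, against 17.9% of all measured genes. At least 1.5-fold lower were 0, 3 and 1, against 16.7%. HSPA14, CCT6A and HSF1, without a window, are in none of these groups, which describe 2 arrays and were not tested against each other. The groups do not sort the genes by heat induction. Of the strongly heat-induced genes named above, BAG3 and HSPH1 had neither match, and HSPA1A, HSPA1B, DNAJB1 and HSPB1 had a pair only. Whether HSF1 had a part in these differences was not tested.

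Other genes of the same folding systems, 81 in 6 lists by function, gave 69 measured genes with a median of 0.13. Of these 5 passed 2-fold on the higher side and 1 on the lower side, against 7.78% and 7.49% of all measured genes. The HSP90 system had a median of 0.51 over 12 genes, with 9 above 0, and the 3 genes past 2-fold were FKBP5, PPP5C and NUDC. FKBP5, an HSP90-bound immunophilin induced by glucocorticoids, had 1151 in the stretched and 362 in the non-stretched array, 3.18-fold higher, with its next probe set at 1.64 on the log2 scale. PPP5C, a protein phosphatase that docks on HSP90, had 836 in the stretched and 285 in the non-stretched array, 2.93-fold higher by the single probe set above both floors. NUDC, a dynein regulator and cochaperone, had 3684 in the stretched and 1832 in the non-stretched array, 2.01-fold higher, and the same size in a second probe set. CDC37, the kinase adaptor of HSP90, was 1.88-fold higher. The 3 genes below 0 by the brightest probe set were chosen here once their values were known. They were CDC37L1, a relative of CDC37 (1.64-fold lower), the myosin chaperone UNC45A (-0.39) and the immunophilin PPID (-0.18). Each also had a dimmer probe set above 0, at up to 0.27, 0.02 and 0.17, so their probe sets did not share a direction.

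Among other HSP70 partners the median was 0.12 over 26 genes, with 15 above 0. DNAJC9, a J-protein that chaperones histones, had 3261 in the stretched and 1286 in the non-stretched array, 2.54-fold higher, and 2.10 on the log2 scale in its second probe set. BAG6, a chaperone of membrane proteins awaiting insertion, had 2409 in the stretched and 9779 in the non-stretched array by its brightest probe set, 4.06-fold lower. Of its other probe sets, the bright ones were at -0.24 and -0.20, and a dim one, at the floor in the stretched array, was at -0.26, so the size of the BAG6 difference rests on 1 probe set ending in _x_at. HSPBP1, an HSP70 exchange factor, was 1.94-fold higher, and SIL1, the exchange factor of the endoplasmic reticulum HSP70, was 1.80-fold lower.

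The list of other mitochondrial chaperones, their cochaperones and mitochondrial proteases had a median of 0.44 over 12 genes, with 11 above 0. GRPEL1, the exchange factor of HSPA9, had 2052 in the stretched and 909 in the non-stretched array, 2.26-fold higher, and its second probe set was at 1.27. TRAP1, the mitochondrial HSP90, and DNLZ, which keeps HSPA9 soluble, were 1.68-fold and 1.65-fold higher, and the protease subunit CLPP was 1.53-fold higher. GRPEL2, the paralog of GRPEL1, was at 0.01 in its brightest probe set and 0.47 in its other. HSCB, an iron-sulfur cluster cochaperone of HSPA9, was at 0.13 in its 1 probe set. Both were chosen here once their values were known. By the brightest probe set the list ranged from -0.27 to 1.18, so it did not move evenly.

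The genes that fold actin and tubulin beside TRiC had a median of 0.13 over 13 genes, 9 of them above 0. CCT6B, a TRiC paralog, was 1.82-fold higher, the prefoldin subunit PFDN2 was at 0.48, the tubulin cofactor TBCE at 0.47 and PDCL at -0.39. Of the other small heat shock proteins only 3 of 8 were measured, all at or near the floor. CRYAB was at the floor in the stretched array and had 53.2 in the non-stretched array, at least 1.88-fold lower. HSF4, a further heat shock factor, was at the floor in the stretched array and had 41.5 in the non-stretched array, at least 1.46-fold lower. The 2 measured probe sets of HSBP1, which binds HSF1, had opposite signs, with -0.12 for the brighter and 0.53 for the dimmer. HSF2BP, which binds HSF2, has 1 probe set, with a log2 difference of -0.20.

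**Figure D4:**
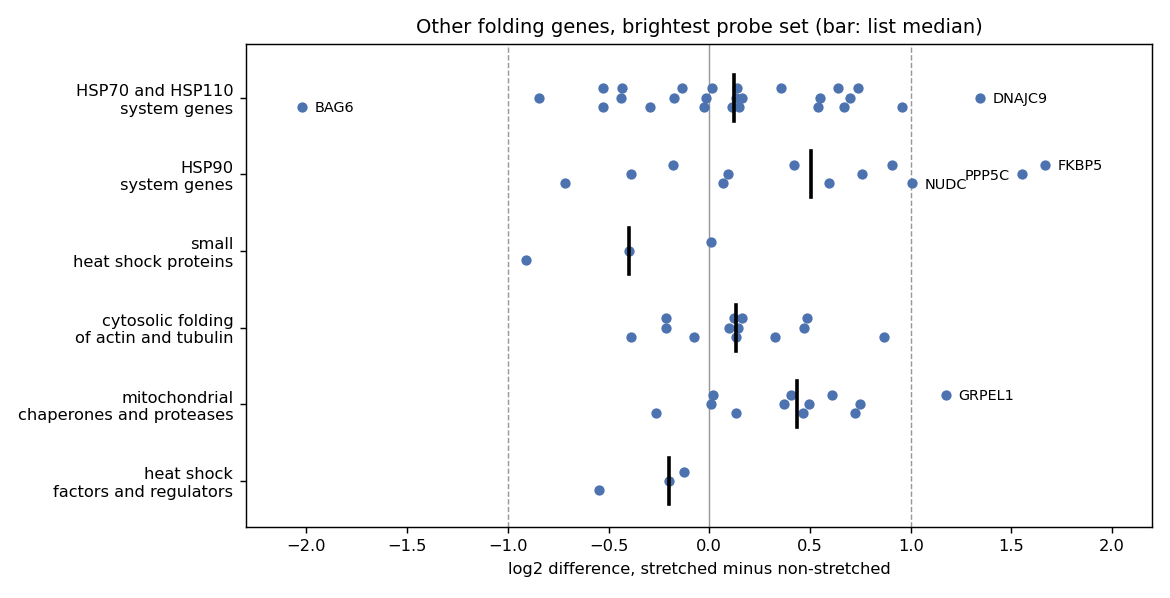
Log2 difference (stretched minus non-stretched) of the 69 measured genes of the 6 other folding lists, 1 point per gene by its brightest probe set, with the list median as a bar and dashed lines at 2-fold. The HSP90 system and mitochondrial medians of 0.51 and 0.44 lie right of the others, and BAG6 stands alone at -2.02.

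Epithelial identity was checked on 8 markers (EPCAM, CDH1, KRT8, KRT18, KRT19, KRT7, CLDN4 and CLDN7), all above the floor in both arrays, from 955 to 12028 in the stretched and from 1520.2 to 10324 in the non-stretched array. Of 17 fibroblast, endothelial and leukocyte markers 15 were named and 6 were measured, with 10 measured probe sets, none of which exceeded 105.5 in the stretched or 174 in the non-stretched array. A dimmer probe set of COL1A1 had 30.4 in the stretched and 174 in the non-stretched array, and another was at the floor in the stretched and had 149 in the non-stretched array; their part in the chaperone values was not tested. The endothelial markers CDH5, VWF, KDR and TEK, the fibroblast markers COL3A1, LUM, PDGFRB and THY1 and the leukocyte marker PTPRC were at the floor in both arrays by their brightest probe set.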

How the data were processed

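Per the labels' protocols, biotin-labelled cRNA was made from 6 µg of total RNA. The deposited table holds 1 linear signal intensity per probe set for 54675 probe sets, of which 62 are controls; the summarisation and scaling by the authors are not stated in the labels or the file. The array medians were 28.35 (stretched) and 28.69 (non-stretched), and 18 spike-in probe sets had a median log2 difference of -0.11. Values were used as deposited.

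Probe sets were named through the platform annotation and RefSeq gene IDs: 41091 had 1 gene, 1801 several and 11721 none here. Signals below the 50th percentile of their array were set to it, and the brightest probe set stood for a gene. Folds of 2 and 1.5 were counted without a test (Python 3.11.15, pandas 2.3.3). Scripts were tested on simulated arrays. All members are named; of the other lists, genes past 2-fold and otherwise the largest differences, up to 4 a list. The members and lists were chosen with earlier results of these data known. Alternatives covered the floor, array scale, intensity trend (lowess), probe set choice and joint probe sets. Those with the endings _x_at or _s_at may also detect related transcripts.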

Additional observations from a re-analysis of the deposited data

How the results depend on the processing

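No paired analysis was possible because each condition has 1 array and no test was made. An alternative counted as moving a median when the shift exceeded the single probe set SD divided by the square root of the number of genes. The median of all members was 0.16 with the arrays set to one 75th percentile, 0.42 with probe sets averaged and 0.37 without the endings _x_at and _s_at. Averaging gave 0.27 for HSP70 and 0.83 for HSP110. Leaving out _x_at and _s_at probe sets gave -0.93 for HSP70, 0.17 for HSP90 and cochaperones, -0.26 for DNAJ and 0.99 for the mitochondrial genes, from 3, 3, 4 and 2 genes, and no value for the small heat shock proteins. Members at least 2-fold higher numbered 2 of 33 with averaging, against 7.56% of all measured genes. Without those endings they numbered 2 of 23, against 8.62%. Members at least 2-fold lower numbered 0 of 32 with the floor at the 75th percentile, against 4.59% of all measured genes. They numbered 3 of 33 with the arrays set to one 75th percentile, against 9.05%. With the intensity trend removed they numbered 3 of 33, against 8.5%. With the floor at the 75th percentile, which replaces dim signals of these genes, HSPA1L was at 0.022, and HSPA2 and HSPA4L were at 0.36 and 0.47, under 1.5-fold. The medians of TRiC, BAG, the small heat shock proteins and HSF1 did not move by this measure under any alternative that gave a value. The limit is wide for few genes, at 0.135 for TRiC, 0.206 for BAG, 0.252 for the small heat shock proteins and 0.356 for HSF1. The change of array scale, a shift of -0.108, was too small to pass any of these limits. Adding the joint probe sets, chosen after seeing the data, moved no median or count in this way. The floor limits what can be said of HSPB8, HSPA1L, HSPA2, HSPA4L and the dim probe sets.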
